A study of Homo sapiens with 24 samples.

Results

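Uninduced A375 shMCM7 cells were compared with parental A375 cells in 6 of the 24 libraries of the series. The members were the 3 libraries labelled as A375 shMCM7 without Dox and the 3 libraries labelled as A375 parental without Dox. A375 is a human melanoma cell line. All 6 cultures were arrested by double thymidine synchronization and kept for 72 hours without Dox. The shMCM7 cells were a puromycin-resistant population, not a clone, that had been transduced at a multiplicity of infection of 1.4 with pRSIT17, a vector that expresses an shRNA against MCM7 when Dox is added. The parental cells had not been transduced, and no cells with a scrambled shRNA were among the libraries, so that effects of transduction, of selection, of separate growth and of shRNA made without Dox cannot be told apart. The study's methods describe 3 biological replicates per condition. The same contrast in the presence of 1 μg/ml Dox, 3 shMCM7 against 3 parental libraries that share no library with the first contrast, is given beside it.

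MCM7 is a subunit of the hexameric MCM helicase, which is loaded onto replication origins in G1 phase and unwinds DNA in S phase. A Dox-inducible shRNA is silent until Dox releases its promoter from a repressor, and such promoters can be leaky. A lentiviral vector integrates into the genome at many sites, and drug selection then keeps the cells that express the resistance gene.

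The sequences below are the MCM7 target given in the labels and its reverse complement, the guide strand that would pair with it, both written 5′ to 3′. They are shown because a leak of the shRNA would act through them. Capitals mark guide bases 2 to 8, the seed, and the bases of the target that pair with the seed.
MCM7 target: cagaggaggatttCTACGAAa
guide: tTTCGTAGaaatcctcctctg
In GENCODE 29 (GRCh38) the target lies in the coding sequence of MCM7 (ENSG00000166508, chromosome 7, 100092728 to 100101940, minus strand) and spans an exon junction. In transcript ENST00000303887.9, which has 15 exons, its first 3 bases are the end of exon 8 (chr7:100097834-100097836) and its other 18 bases are the start of exon 9 (chr7:100097728-100097745). It was found in 5 annotated transcripts, all of MCM7.

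Total counts per library ran from 206219274 to 255897834 (median 236101489.5). Levels are given as CPM, counts per library size after TMM scaling, and 3 counts correspond to 0.0116 to 0.0146 CPM, a limit for counting error only. Reads of mitochondrial genes made up 2.78% to 3.38% of the counts. The melanocyte lineage factors SOX10 and MITF were present in all 6 libraries, at 581 to 650 CPM and 26.7 to 34.7 CPM. The pigment cell markers MLANA and TYR were at 0 or at most 0.00796 CPM. Epithelial markers were mixed. EPCAM, CDH1 and KRT19 did not exceed 0.483 CPM, and CEACAM5 and CEACAM6 were at 0. KRT7 and CLDN4 were present in all 6 libraries, at 13.9 to 25.5 CPM and 13.3 to 19.6 CPM.

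The library labelled shMCM7 noDox replicate 1 went partly against its label. MCM7 stood at 131 CPM in it, at 353 and 359 CPM in shMCM7 noDox replicates 2 and 3, and at 352, 342 and 352 CPM in the 3 parental noDox libraries. Replicates 2 and 3 thus lay just above the highest parental library, whereas replicate 1 was below all others. With Dox, MCM7 was at 76.8, 76.4 and 77.2 CPM in shMCM7 cells and at 370, 355 and 357 CPM in parental cells, so that replicate 1 lay between the induced and the uninduced levels. The log2 fold change of MCM7 between shMCM7 noDox and parental noDox cells was -0.31 (SE 0.288, FDR 0.643), and 0.03 (SE 0.0485, FDR 0.83) without replicate 1. With all 6 libraries and the replicate number as a block it was -0.44 (SE 0.182, FDR 0.115). FDR stands for the Benjamini-Hochberg adjusted p of the quasi-likelihood test in edgeR. No lower MCM7 was detectable in replicates 2 and 3. The counts of calls, the largest changes and the list calls are therefore given with and without replicate 1.

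The other helicase subunits did not share the low level of MCM7 in replicate 1. MCM2 was at 212 CPM in replicate 1 and at 208 and 213 CPM in replicates 2 and 3. MCM4 was at 378 CPM in replicate 1, against 388 and 384 CPM. MCM5 was somewhat higher in replicate 1, at 76.6 CPM against 66.9 and 66.9 CPM, with 75.9, 61.6 and 66.4 CPM in parental noDox replicates 1 to 3. Over the 26 tested genes of the MCM helicase and of origin licensing, log2 fold changes against parental cells ran from -0.31, for MCM7 itself, to 0.07, and 0 were called in either direction.

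Across 16093 tested genes, 189 were higher in shMCM7 noDox cells than in parental noDox cells (1.17% of those tested) and 77 were lower (0.478%). Calls needed a change of 1.5-fold or more, p under 0.01 and FDR under 0.05. Without replicate 1, 256 of 16228 genes were higher (1.58%) and 65 were lower (0.401%), together 1.98%, of which 175 and 58 were also called with all 6 libraries. Blocking on the replicate number gave 335 higher genes (2.08%) and 149 lower genes (0.926%), which contained all of the 189 and the 77. In all 266 called genes the shMCM7 and parental libraries did not overlap, as was the case for 22.2% of all tested genes. Without a block, 33 calls depended on replicate 1 being in the comparison and 88 on its being left out.

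Most called genes were weakly expressed. The median log2 fold change was 1.23 among the higher genes, with 129 of 189 over 2-fold and 38 over 4-fold, and -0.92 among the lower genes, with 33 of 77 over 2-fold. Of the higher genes, 78 had a parental mean under 0.5 CPM, and 16 of these reached a mean of at least 1 CPM in shMCM7 cells. Only 25 higher and 10 lower genes had a parental mean of at least 10 CPM. The mean over the 6 libraries had a median of 1.83 CPM among the higher and 1.8 CPM among the lower genes. By the same mean, 11446 genes reached at least 5 CPM, beside 16093 tested. Of the tested genes, 8997 overlap a gene on the other strand, as do 96 of the higher and 37 of the lower genes. Whether reads were counted by strand is not given in the sources used here, and the values of such genes are uncertain to that extent.

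The largest changes were ranked among protein-coding genes called with and without replicate 1. A mean of at least 1 CPM and groups that do not overlap were also required, so that separation of the groups is no result for these genes. ABCC9, with at most 3 counts in every parental library, had a log2 fold change of 5.21 and fell outside this rule. The 12 genes with the largest higher levels included several that are best known from neurons, sperm or muscle. SH3GL2 (endophilin A1, which acts in endocytosis of synaptic vesicles; chromosome 9, 17579082 to 17797129) was at 3.87, 6.13 and 5.82 CPM in shMCM7 noDox replicates 1 to 3 and at 0.259, 0.212 and 0.255 CPM in the parental noDox replicates. Its log2 fold change was 4.44 (SE 0.204, FDR 7.29e-06), or 4.63 without replicate 1. BASP1, a membrane-bound signalling protein abundant in growth cones, was at 2.10, 5.26 and 5.98 CPM against 0.183, 0.297 and 0.365 CPM. Replicate 1 held less BASP1 than the other shMCM7 libraries (log2 fold change 3.99, SE 0.398, FDR 0.000544, and 4.33 without replicate 1). The cation channel gene TRPC4 was at 2.01, 3.50 and 4.01 CPM against 0.211, 0.247 and 0.279 CPM (log2 fold change 3.69, FDR 5.34e-05, and 3.94 without replicate 1). PTPRD, a receptor tyrosine phosphatase, was at 3.64, 5.00 and 5.25 CPM against 0.179, 0.405 and 0.538 CPM (log2 fold change 3.64, FDR 0.000148, and 3.79 without replicate 1).

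In this set, shMCM7 replicate 1 was the lowest of its group for each gene shown so far. FOXP1, a forkhead transcription factor, showed the same order, with 2.7, 3.34 and 3.50 CPM against 0.406, 0.409 and 0.615 CPM (log2 fold change 2.75, FDR 3.45e-05, and 2.86 without replicate 1). MME, which encodes the cell surface peptidase neprilysin, was at 3.39, 5.73 and 6.41 CPM against 0.497, 1.08 and 1.15 CPM (log2 fold change 2.51, FDR 0.00196, and 2.75 without replicate 1). Genes with a smaller spread were TMPRSS15 (the protease enteropeptidase), with 11.6, 14.9 and 15.4 CPM against 2.47, 2.95 and 2.71 CPM (log2 fold change 2.36, FDR 7.29e-06), and PEAR1 (a platelet receptor), with 13.7, 14.4 and 15.9 CPM against 3.21, 3.75 and 4.01 CPM (log2 fold change 2.0, FDR 7.29e-06). The remaining 4 genes were SPANXC and SPANXB1, described with their neighbours, the junctional scaffold gene MPP7 (log2 fold change 2.74, FDR 0.000325) and IGFN1, a muscle protein (2.22, FDR 2.53e-05). All 12 were also up-regulated in the Dox libraries.

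By the same rule, the 12 genes with the largest lower levels included cell adhesion and surface proteins. The lowest called gene, MUM1L1 (log2 fold change -2.89), fell outside the rule. CNTN1 (contactin 1, a neural adhesion molecule; chromosome 12, 40692442 to 41072418) was at 0.402, 0.553 and 0.395 CPM in shMCM7 noDox cells and at 1.81, 2.88 and 2.81 CPM in parental noDox cells (log2 fold change -2.48, SE 0.215, FDR 0.000208, and -2.41 without replicate 1). NCAM1, the neural cell adhesion molecule, was at 1.40, 1.89 and 1.84 CPM against 4.94, 6.83 and 7.48 CPM (log2 fold change -1.91, FDR 0.000229, and -1.78 without replicate 1). For both genes replicate 1 was the lowest parental library. SLC4A4, a sodium bicarbonate cotransporter, was the most even of the set, with 1.40, 1.41 and 1.38 CPM against 3.50, 3.53 and 3.56 CPM (log2 fold change -1.34, SE 0.0952, FDR 4.87e-05). RNF128, a membrane-bound ubiquitin ligase, was at 3.6, 3.05 and 2.91 CPM against 8.72, 7.66 and 7.70 CPM (log2 fold change -1.34, FDR 8.32e-05).

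Further lower genes were the zinc finger gene ZNF536 (log2 fold change -1.18), the epoxygenase gene CYP2J2 (-1.15), the protein phosphatase 4 subunit gene PPP4R3C (-1.39) and the band 4.1 family gene EPB41L4A (-1.37), with FDR values from 0.000321 to 0.0012. EPHB6, a kinase-dead ephrin receptor, was at 0.515, 0.937 and 1.00 CPM against 1.59, 1.77 and 2.41 CPM (log2 fold change -1.23, FDR 0.0271), and its call held in 4 of the 6 fits that leave out 1 library. The kinesin gene KIF26B (log2 fold change -1.03) and SV2C, a synaptic vesicle protein (-1.0, FDR 0.0478), were the 2 of the 12 not called in the Dox libraries. The call of SV2C held in 1 of the 6 fits that leave out 1 library. Of the 24 genes with the largest changes, 7 higher and 6 lower ones overlap a gene on the other strand. Leaving out replicate 1 moved the log2 fold change most for BASP1 among the higher genes, by 0.343, and for SV2C among the lower genes, from -1.0 to -1.28.

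**Figure D1:**
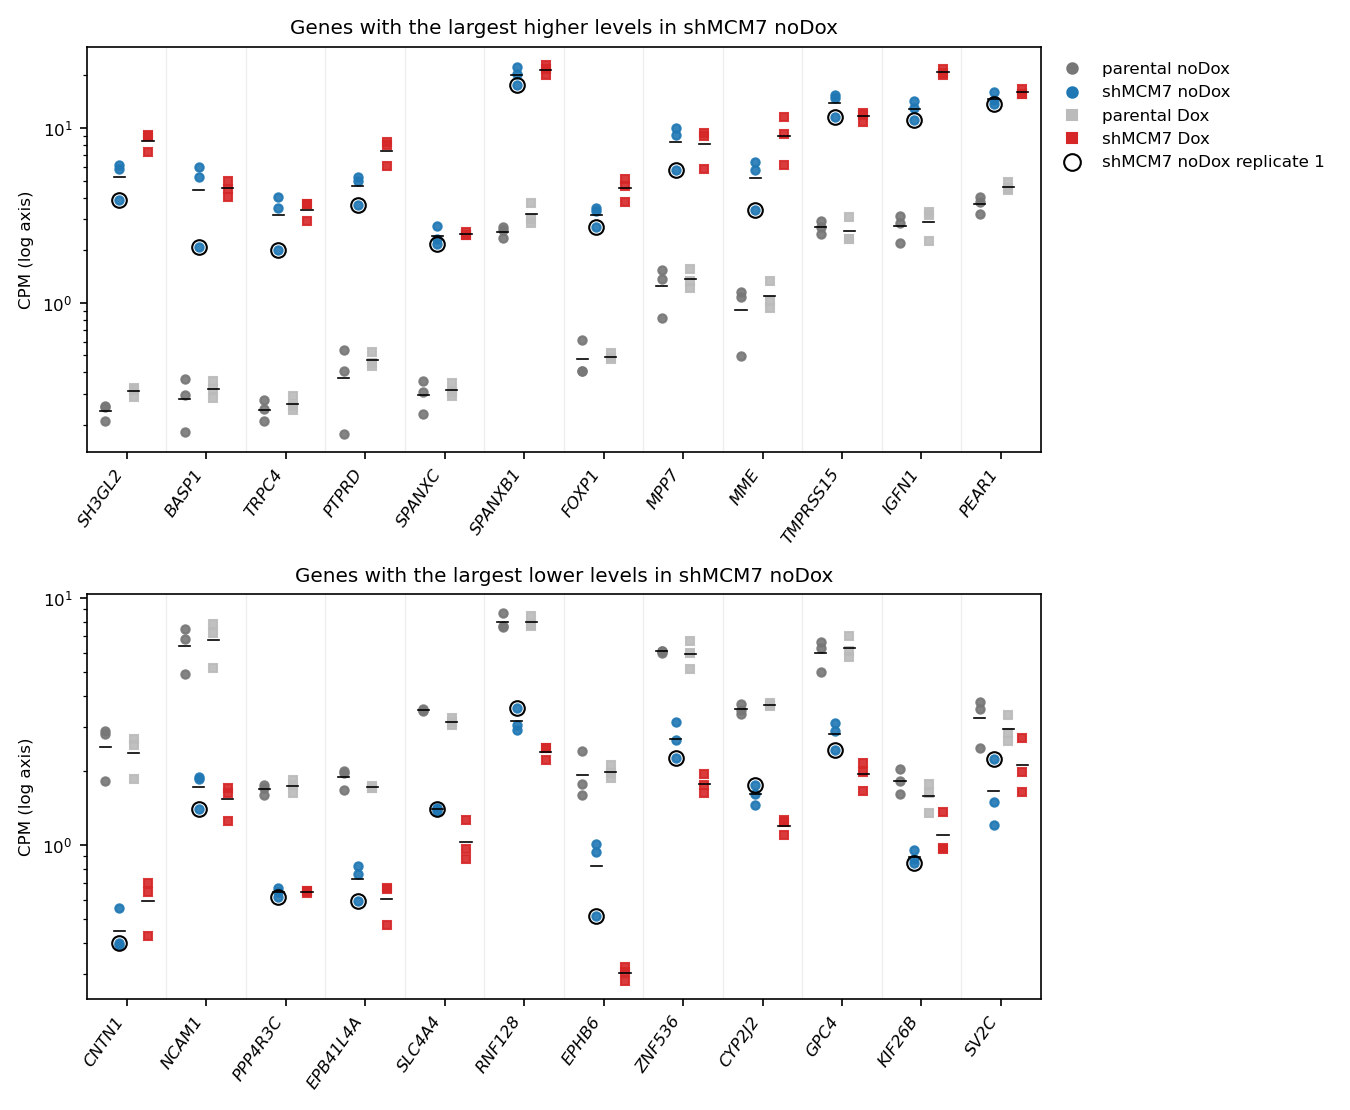
Levels in CPM (log axis) of the 12 genes with the largest higher (top) and lower (bottom) levels in shMCM7 noDox cells, in the 12 A375 libraries. Points are libraries, short lines are group means and open circles mark shMCM7 noDox replicate 1. The blue and dark grey points do not overlap for any gene, which the choice of these genes required. With Dox, SH3GL2 stood at 7.24 to 9.12 CPM in shMCM7 cells (red) against 0.291 to 0.326 CPM in parental cells (light grey), EPHB6 was lower in shMCM7 cells than without Dox, at 0.282 to 0.320 CPM, and the points of KIF26B and SV2C overlap.

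Of the 266 called genes, 47 lay within 500 kb of the next called gene of the same direction. They formed 25 pairs of neighbours, 22 of them higher and 3 lower, and in 22 of the 25 both genes were also called without replicate 1. Whether this exceeds what the spacing of genes gives was not tested, and some pairs overlap each other in the annotation. TRPC4 was adjacent to POSTN (periostin, a matrix protein), which was at 0.618, 0.874 and 1.06 CPM against 0.107, 0.166 and 0.188 CPM (log2 fold change 2.47, FDR 0.00101). The largest run, singled out after the values were seen, was on chromosome X, where 13 higher and 9 lower genes lay and 3.76% of the 585 tested genes were called, against 1.65% of all tested genes. Chromosome 18 had a similar share, 3.69% of 217 genes.

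The run on chromosome X (141002591 to 141909388) held 6 tested genes, of which 5 were higher. They were 3 SPANX genes, sperm proteins of the cell nucleus, and the melanoma antigen genes MAGEC3 and MAGEC1, all cancer-testis genes that most adult tissues do not express. SPANXB1 was at 17.5, 20.3 and 22.3 CPM in shMCM7 noDox cells against 2.34, 2.71 and 2.60 CPM in parental noDox cells (log2 fold change 2.98, SE 0.104, FDR 1.23e-06). SPANXC was at 2.16, 2.33 and 2.76 CPM against 0.310, 0.355 and 0.231 CPM (log2 fold change 3.0, FDR 2.28e-05). SPANXD had a log2 fold change of 2.88, MAGEC3 of 2.02 and MAGEC1 of 1.15. The SPANX genes are near-identical copies, and the authors' counting may have split reads among them, so that which copy moved is uncertain. LDOC1, a gene between SPANXB1 and SPANXC, was at 33.5, 31.9 and 34.3 CPM against 25.7, 23.9 and 26.9 CPM, a log2 difference of 0.38 (FDR 0.00719) that is under 1.5-fold. The next tested gene, MAGEC2, had a log2 fold change of 0.09 (FDR 0.498). In the Dox libraries the 5 genes had log2 fold changes of 1.05 to 2.97, and each was called.

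Without Dox, no long stretch of a chromosome was shifted. Over 292 windows of 10 Mb with at least 10 tested genes, the median log2 fold change lay between -0.122 and 0.0692, and 0 windows went beyond 0.2 in either direction. Without replicate 1 the medians lay between -0.105 and 0.065. Chromosome medians lay between -0.0581 (chromosome 13) and 0.0267 (chromosome 22), and between -0.0537 and 0.0223 without replicate 1. Of the 3 windows with a median beyond 0.1 in either direction, 2 kept their sign in the Dox contrast. The lowest window without Dox, on chromosome 19 from 20000001 to 30000000 (45 tested genes), had a median of -0.723 with Dox.

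Of 720 tested genes in 32 lists of pathways and markers, 14 were higher and 3 lower, against 1.17% and 0.478% of all tested genes. Lists that a viral vector or an expressed shRNA could touch held 0 called genes: 38 interferon-stimulated genes (median log2 fold change 0.00722), 16 nucleic acid sensors (-0.0279), 13 genes of the RNA interference machinery (-0.0133) and 20 retroviral restriction and silencing factors (-0.0496). The antiviral effector ISG15 was at 5.95, 6.24 and 6.57 CPM against 6.73, 6.38 and 7.46 CPM. Its log2 fold change was -0.13 (FDR 0.464). Without replicate 1 the 4 lists held 0 calls as well, with medians of 0.026, -0.0262, 0.00476 and -0.0331. In lists of this size few calls arise at the share called among all genes. With the replicate block, the interferon-induced gene XAF1 alone of these 4 lists was called (log2 fold change -0.64, FDR 0.00431). The median over all tested genes was -0.00406.

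Cell cycle and stress lists held no called genes with all 6 libraries. The 30 tested G1/S genes, 40 G2/M genes and 26 p53 targets had medians of -0.00894, -0.0209 and 0.013, with 0 genes called, and CDKN1A, the p53 target that inhibits cyclin-dependent kinases, had a log2 fold change of 0.04 (FDR 0.744). The lists for the unfolded protein response (14 tested), heat shock (12), NRF2 targets (16), ATF4 targets (28), ABC drug transporters (12), antigen presentation (18), MAPK output (20), cholesterol synthesis (22), hypoxia (23), HOX genes (38), integrins (24) and collagens (38) held 0 called genes too. The ATF4 list had the highest median of the stress lists, 0.0862, and 0.0926 without replicate 1. Without replicate 1, the stress gene NUPR1 of the ATF4 list was called as higher. Neither the 18 tested melanocyte genes nor the 8 fibroblast markers or the 6 blood and endothelial markers held a call. With the block, the melanocyte enzyme gene TYRP1 (log2 fold change 1.02, FDR 0.00903) and the endothelial cadherin gene CDH5 (0.951, FDR 0.00546) were called. Among the epithelial markers KRT7, a keratin, was at 21.2, 25.5 and 25 CPM against 13.9, 17.2 and 17.7 CPM and was called without replicate 1 but not with all 6 libraries.

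The called list members were spread over 7 lists. The cytokine gene IL1B was at 4.42, 3.79 and 2.44 CPM against 1.54, 1.34 and 1.13 CPM (log2 fold change 1.40, SE 0.208, FDR 0.00526), and IL6 had a log2 fold change of 2.48 (FDR 0.0245), from 0.118 ± 0.0847 CPM in parental to 0.680 ± 0.328 CPM in shMCM7 cells (SD, n = 3 each). They were the only called members of the 23 NF-kB targets and cytokines, and the call of IL6 held in 3 of the 6 fits that leave out 1 library. Of 24 YAP-TEAD targets, ANKRD1 and CYR61 were higher. ANKRD1 was at 26.7, 32.1 and 34.7 CPM against 15.3, 16.5 and 11.9 CPM (log2 fold change 1.09, SE 0.124, FDR 0.00123). CYR61, a secreted matricellular protein, was at 137, 127 and 104 CPM against 71.1, 87.7 and 66.4 CPM (log2 fold change 0.70, FDR 0.00964, held in 4 of 6 leave-out fits). The median of that list was 0.29, and 0.236 without replicate 1. CTGF, a further YAP-TEAD target, had a log2 fold change of 0.61 and was called with the block alone (FDR 1.21e-06, against 0.0601 without it).

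Among 54 matrix glycoproteins and proteoglycans, 5 were higher and 1 was lower. The basement membrane laminin LAMA1 was at 8.94, 8.94 and 9.81 CPM against 2.42, 2.86 and 2.62 CPM (log2 fold change 1.81, SE 0.0898, FDR 7.29e-06). NID2 (nidogen 2, also of basement membranes) was at 4.86, 7.48 and 8.12 CPM against 2.14, 2.74 and 2.94 CPM (log2 fold change 1.39, FDR 0.00317). The others were POSTN, CYR61 and LAMA5 (log2 fold change 0.71, FDR 0.0351), the last one outside the naming rule. The proteoglycan GPC4 (glypican 4) was lower, with 2.42, 3.13 and 2.91 CPM against 5.03, 6.26 and 6.66 CPM (log2 fold change -1.09, FDR 0.00172). Without replicate 1, BGN, MATN2 and CCDC80 were called in addition, which brought the higher members to 8. With the block and all 6 libraries, MATN2 and CTGF were added.

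Smaller sets held at most 2 calls in a direction. CDH6, a cadherin, was at 0.849, 0.947 and 1.17 CPM against 0.0517, 0.0695 and 0.0769 CPM (log2 fold change 3.90, SE 0.235, FDR 2.28e-05), and CDH15 was lower (-1.07, FDR 0.0249, held in 2 of 6 leave-out fits). These were 2 of 25 tested cadherins and protocadherins, and with the block CDH4, CDH5 and CDH11 were called as higher too. Of 22 dedifferentiation and EMT factors, 2 were called as higher. Among them the neural crest transcription factor SOX9 was at 2.67, 3.29 and 3.94 CPM against 1.37, 1.19 and 1.71 CPM (log2 fold change 1.22, FDR 0.00424). NGFR of the same list was called as lower only without replicate 1 (log2 fold change -0.67). With the block and all 6 libraries its log2 fold change was -0.38, under 1.5-fold. Replicate 1 was highest in both groups, at 142, 79 and 87 CPM in shMCM7 and 172, 109 and 116 CPM in parental noDox replicates 1 to 3. The fit without shMCM7 replicate 1 keeps parental replicate 1. Of 23 cancer-testis antigens, SPANXB1 and MAGEC1 were higher and CTAG2 was lower (log2 fold change -1.26, FDR 0.0198, held in 3 of 6 leave-out fits), the last with 0.108 to 0.156 CPM against 0.310 to 0.385 CPM.

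The class I PI3K subunits and the metalloproteinases with their inhibitors were followed because both groups were of interest in the study of MCM7 depletion. None of the 8 tested PI3K subunits was called, nor any of the 28 tested genes of the wider PI3K list, in which the block called the inhibitor gene PIK3IP1 as lower (log2 fold change -1.28, FDR 0.0363). PIK3R2, a regulatory subunit, was at 63.7, 105 and 110 CPM against 105, 104 and 117 CPM (log2 fold change -0.23, FDR 0.543, and -0.01 without replicate 1). With Dox it was at 28.5 to 33.5 CPM in shMCM7 cells against 106 to 117 CPM in parental cells. PIK3R3 followed the same order, with 14.5, 27.1 and 29.3 CPM against 28.9, 30.1 and 31.6 CPM, and 7.24 to 8.2 CPM in shMCM7 cells with Dox. With the block its log2 fold change was -0.41 (FDR 0.0205), which is under 1.5-fold. For PIK3R2 and PIK3R3, only replicate 1 stood below the parental range by a wide margin. PIK3R6, a weakly expressed regulatory subunit, went the other way. It was at 0.623, 0.369 and 0.227 CPM against 0.330, 0.386 and 0.260 CPM without Dox (log2 fold change 0.30, FDR 0.707). With Dox it was called as higher (log2 fold change 1.86).

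Of 22 tested metalloproteinases and inhibitors, 1 was called. MMP3 (stromelysin 1) was at 1.46, 1.21 and 2.01 CPM against 0.807, 0.587 and 0.774 CPM (log2 fold change 1.11, SE 0.206, FDR 0.019, held in 4 of 6 leave-out fits), and reached 4.58 to 8.04 CPM in shMCM7 cells with Dox. TIMP2, an inhibitor that is abundant in these cells, was at 185, 157 and 154 CPM against 169, 145 and 141 CPM (log2 fold change 0.12, FDR 0.524), and at 270 to 300 CPM in shMCM7 cells with Dox. The membrane-anchored inhibitor RECK had a log2 fold change of 0.23 (FDR 0.21).

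**Figure D2:**
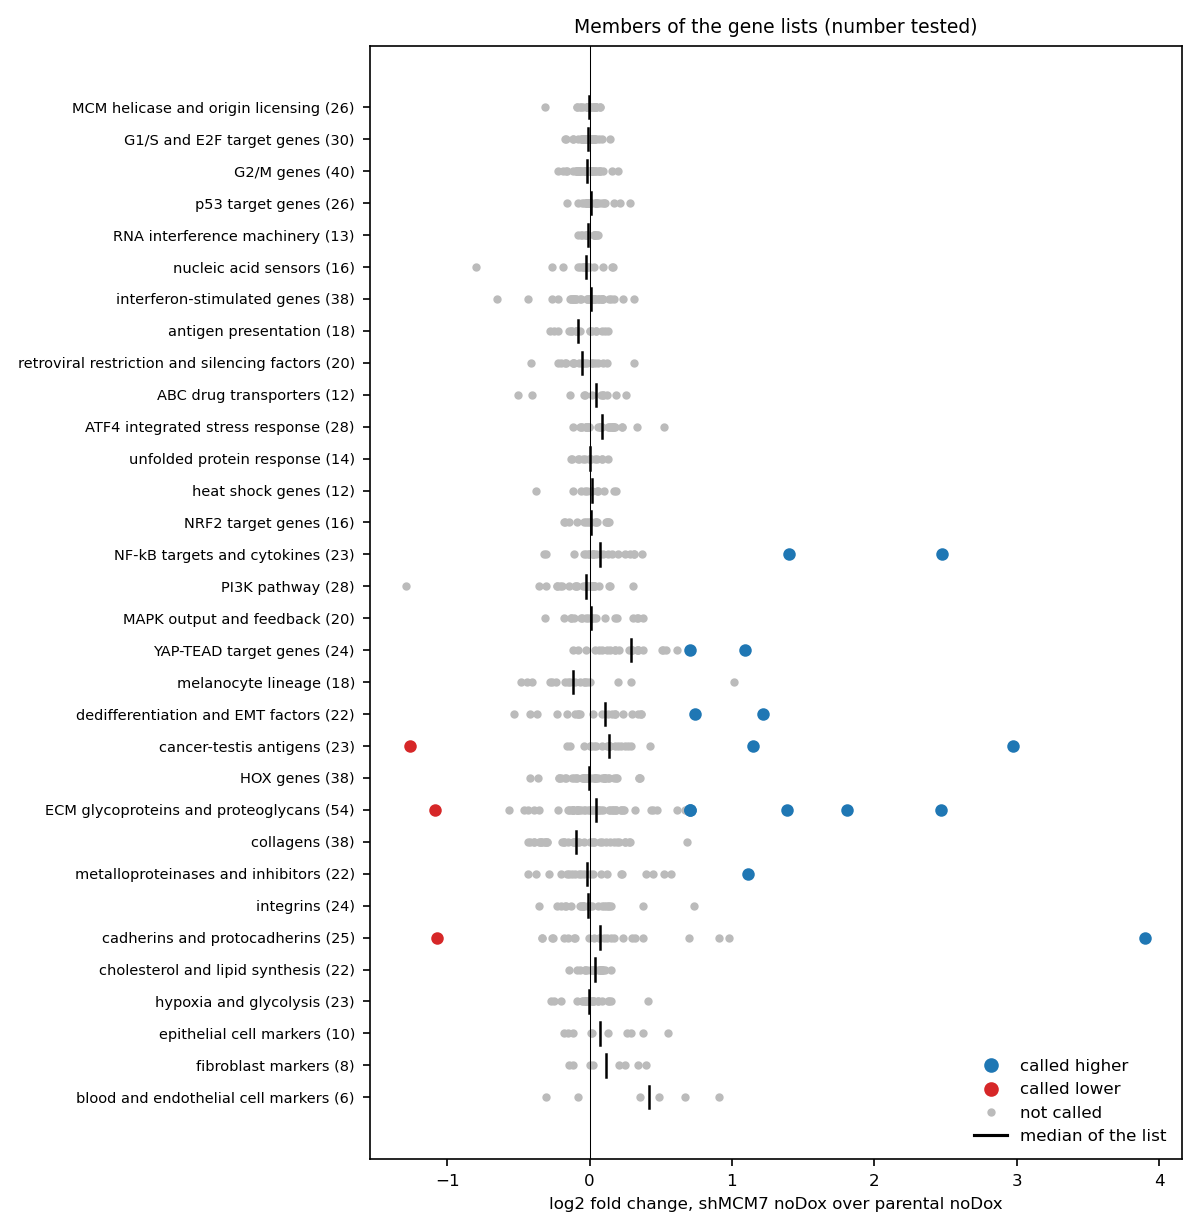
Log2 fold change of shMCM7 noDox over parental noDox for each tested member of the 32 gene lists, with the number tested in brackets. Black bars are list medians, blue and red points are genes called higher and lower. List medians lie between -0.118 and 0.42, and called members stand in 7 lists.

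Genes with a match to the guide seed were called about as often as other genes. Of the tested genes with an annotated 3′UTR, 280 (1.8%) hold the 7 bases CTACGAA on the sense strand of their longest 3′UTR. Among these, 2 were higher and 2 were lower, which is 4 of 280 beside 1.65% of all tested genes in either direction. The median log2 fold change was -0.0348 with a match and -0.0029 in 15310 genes without, and -0.0141 and 6.45e-05 when replicate 1 was left out. In the Dox contrast, where the shRNA was induced, the medians were -0.117 and 0.00235. The lower genes with a match, named after their values were seen, were PHACTR1 (log2 fold change -0.61, FDR 0.00317) and AFF2 (-2.35, FDR 0.00565). A match is a description of the letters and not a site.

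The contrast between shMCM7 and parental cells was then read in the Dox libraries. There 1229 of 16086 genes were higher (7.64%) and 1349 lower (8.39%), a contrast that also holds the induced depletion of MCM7. Of the 189 genes higher without Dox, 161 were also called as higher with Dox (85.2% of the 189 and 13.1% of the 1229). Of the 77 lower genes, 63 were called as lower with Dox (81.8% of the 77 and 4.67% of the 1349). In each direction 1 gene was called in the opposite direction. Without replicate 1 the shared calls were 180 of 256 higher genes (70.3%) and 52 of 65 lower genes (80%), and 4 higher and 2 lower genes were called in the opposite direction, among them PDE2A and SFN (higher without Dox) and MT-ND6 (lower). Across the 15950 genes tested in both contrasts, which are not independent replicates, Pearson's r of the log2 fold changes was 0.501, and 0.41 over 15993 genes without replicate 1.

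The sizes were similar for most of these genes. Of 174 genes called as higher with and without replicate 1 and tested with Dox, 113 had log2 fold changes within 1.5-fold of each other in the 2 contrasts, 39 were larger with Dox and 22 were smaller or opposite. Among the 58 lower ones, 38 were within 1.5-fold, 17 larger and 3 smaller or opposite. The median log2 fold change of the higher genes was 1.25 without and 1.51 with Dox, and that of the lower genes -0.98 and -1.33. The difference itself was tested with an interaction term over the 12 A375 libraries, which called 11.1% of all genes. Of 233 genes called with and without replicate 1, 42 had a change that was larger with Dox and 17 one that was smaller, at an FDR under 0.05 and a difference of at least 1.5-fold. Leaving out replicate 1 gave 37 and 22, and 12.3% of all genes.

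Of the 24 genes with the largest changes, 6 had an interaction term with an FDR under 0.05, and 4 of these also without replicate 1. The 6 were EPHB6 (-1.48, FDR 0.0031), GPC4 (-0.622, FDR 0.0239), ZNF536 (-0.579, FDR 0.0228), CYP2J2 (-0.481, FDR 0.0186), RNF128 (-0.412, FDR 0.0327) and IGFN1 (0.604, FDR 0.0371), each farther from parental cells with Dox. RNF128 and IGFN1 missed the threshold without replicate 1. No difference was detected for the other 18. SH3GL2 had a log2 fold change of 4.76 with Dox, from 0.326, 0.318 and 0.291 CPM in parental cells to 7.24, 8.94 and 9.12 CPM in shMCM7 cells. The interaction estimate for it was 0.31 (SE 0.266, FDR 0.398). TRPC4 had a log2 fold change of 3.67 with Dox (interaction -0.03, SE 0.333, FDR 0.962), and NCAM1 one of -2.15 (interaction -0.25, SE 0.262, FDR 0.508). POSTN was an exception in the Dox libraries, where parental replicate 3 stood at 3.74 CPM and the other parental libraries at 0.0902 and 0.139 CPM, against 1.23 to 2.0 CPM in shMCM7 cells, so that its contrast with Dox rested on 1 library (log2 fold change 0.28, FDR 0.836).

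**Figure D3:**
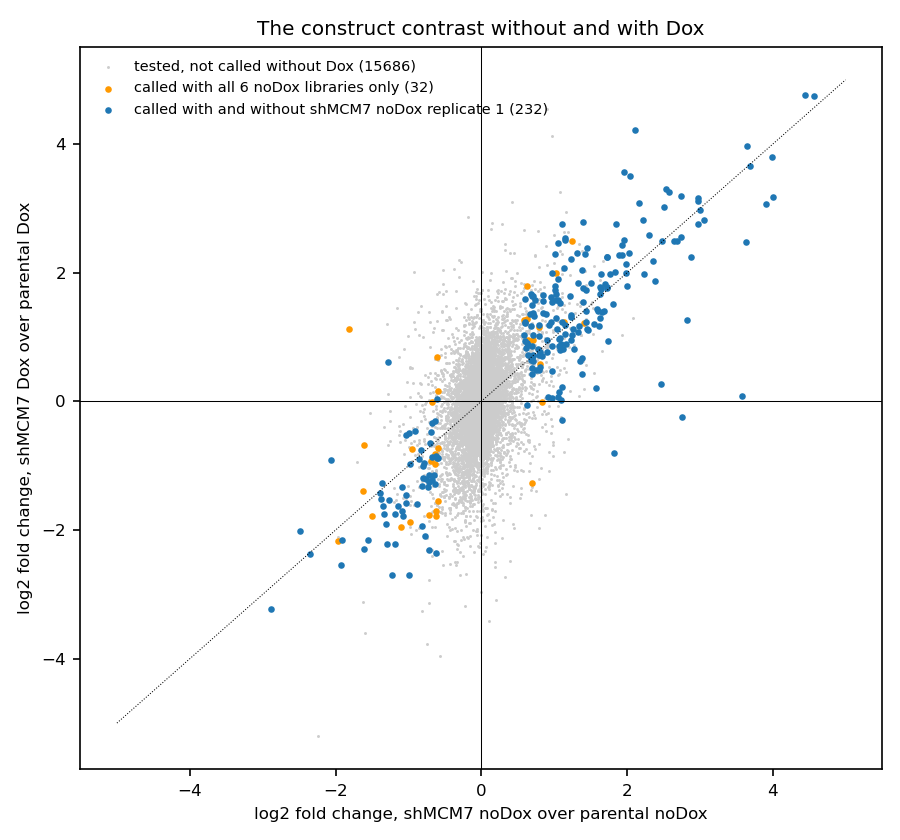
Log2 fold change of shMCM7 over parental cells without Dox (x axis) and with Dox (y axis) for 15950 genes tested in both. Blue points are the 232 genes called with and without shMCM7 noDox replicate 1, orange points 32 further genes called only with all 6 noDox libraries, grey points the rest, and the dotted line marks equal values. Most coloured points lie where both values are positive or both negative.

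Replicate 1 of shMCM7 noDox carried the difference from parental cells as well. Replicate 1 was not used to choose the genes called from replicates 2 and 3, but the parental libraries were. Replicate 1 lay beyond all 3 parental libraries in the called direction for 230 of 256 higher genes and 60 of 65 lower genes. The same share over all tested genes is not given here. In 22.2% of all tested genes the full shMCM7 noDox and parental noDox groups did not overlap. On a log2 CPM scale with the parental noDox mean at 0 and the mean of replicates 2 and 3 at 1, replicate 1 had a median of 0.774 over the 321 genes (quartiles 0.494 and 0.978). On that scale the shMCM7 Dox libraries had medians of 1.03, 1.08 and 1.15, and the parental Dox libraries medians of 0.127, 0.0936 and 0.154. Pearson's r of log2 CPM between replicate 1 and the other shMCM7 noDox libraries was 0.9956 and 0.9964, and at most 0.9945 with parental noDox libraries, across genes that are not independent replicates.

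Replicate 1 also stood part of the way towards the induced cells. Among 2111 genes called between shMCM7 Dox cells and replicates 2 and 3 (13% of those tested), replicate 1 had a median place of 0.235 on a scale from the mean of replicates 2 and 3 (0) to the mean of shMCM7 Dox (1), with quartiles of 0.0697 and 0.41. The parental noDox libraries, equally unused in choosing these genes, had medians of 0.000626, 0.0122 and -0.0171. MCM7 itself was at 0.65 on this scale in replicate 1. Whether the lower MCM7 of replicate 1 has a part in these places was not tested.

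Replicate 1 held more genes off its group than the other libraries did. Of 11446 genes with a mean of at least 5 CPM, 5 differed at least 2-fold between replicate 1 and the mean of replicates 2 and 3, and the same measure gave 0 to 3 genes for each of the other 5 libraries. At 1.5-fold, 23 genes were higher and 36 lower in replicate 1, against 4 to 15 higher and 1 to 19 lower in each of the other 5 libraries. The genes chosen here by how far replicate 1 lies from its group are a description, without a test. After MCM7, the lowest was CRISPLD1, a secreted protein gene, at 6.57, 14.3 and 16.8 CPM, with 15.5 to 17.1 CPM in parental cells and 2.71 to 3.05 CPM in shMCM7 cells with Dox. SLITRK5, a neuronal transmembrane protein gene, was at 12.5, 26.1 and 30.5 CPM, with 10.0 to 12.2 CPM in parental cells and 10.9 to 11.3 CPM in shMCM7 cells with Dox. CRISPLD1 thus lay near the parental level in replicates 2 and 3, whereas SLITRK5 lay above it there and close to it in replicate 1.

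The other genes lowest in replicate 1 were PCSK1, SOX2, PIK3R3, AL358075.4 and DMKN, of which AL358075.4 overlaps PIK3R3 in the annotation and may share its reads. SOX2, a stem cell transcription factor, was at 2.83, 5.02 and 6.10 CPM and at 2.17 to 2.89 CPM in shMCM7 cells with Dox. For every gene lowest in replicate 1 except MCM7, parental noDox replicate 1 was the lowest parental noDox library. The margin was wide for PCSK1 (6.83 CPM against 13.9 and 15 CPM) and narrow for CRISPLD1 (15.49 CPM against 15.5 and 17.12 CPM). The genes highest in replicate 1 were FLG, IL24, ANGPTL4, HMOX1, SECTM1, FAT3, NGFR and FN1. In these, parental noDox replicate 1 was the highest parental library too. HMOX1 (heme oxygenase 1), for example, was at 36.7, 20.3 and 20.8 CPM in shMCM7 and 39.3, 20.7 and 18.9 CPM in parental noDox replicates 1 to 3. FN1 (fibronectin) was at 730, 458 and 405 CPM against 680, 628 and 546 CPM.

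**Figure D4:**
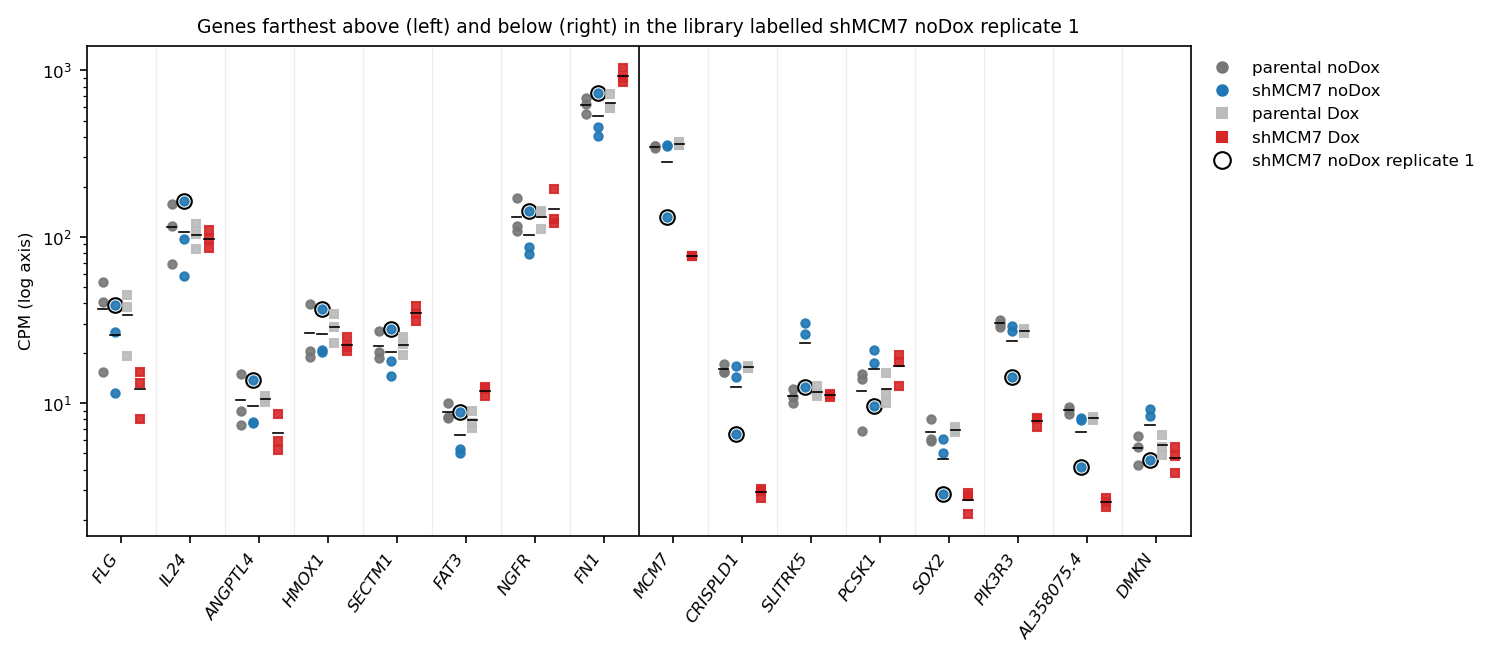
Levels in CPM (log axis) of the genes farthest above (left of the line) and below (right of the line) the other shMCM7 noDox libraries in replicate 1, which an open circle marks, in the 12 A375 libraries. Points are libraries and short lines are group means. MCM7 at 131 CPM lies between the uninduced and the induced shMCM7 levels.

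All 33 genes called only with replicate 1 kept their direction without it, 32 of them at an FDR under 0.1. Of 87 genes called only without it and tested in both fits, all kept their direction with it and 45 had an FDR under 0.1. The 5 with the smallest p that were made only with it were CACNA1D, CCDC85B, SUSD2, ASTN1 and NELL2, with log2 fold changes of -0.63, -0.61, 0.63, 0.59 and -0.69. SUSD2 had an FDR of 0.01 without replicate 1 and fell under the fold limit there, at 0.49. The 5 made only without it were SLITRK5, MT-ND6, CAV1, PDE2A and SFN. SLITRK5 had a log2 fold change of 1.36 without replicate 1 (FDR 1.78e-05) and 1.06 with it (FDR 0.0596). CAV1 (caveolin 1) was at 256, 306 and 348 CPM against 187, 219 and 217 CPM, with a log2 fold change of 0.66 without replicate 1 (FDR 0.00093) and 0.54 with it. The mitochondrial gene MT-ND6 was at 148, 94.2 and 83.4 CPM against 156, 146 and 171 CPM, with replicate 1 inside the parental range. With the block, SLITRK5 and MT-ND6 were called with all 6 libraries as well (FDR 5.8e-05 and 0.00141). CAV1, PDE2A and SFN were under 1.5-fold with the block (log2 fold changes 0.54, 0.55 and 0.57).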

How the data were processed

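RNA of 24 cultures was sequenced, and the 12 A375 libraries were analysed here. The submitters' processing notes name bcl2fastq 2.19, Trimmomatic, STAR 2.7.1, featureCounts, edgeR and the build GRCh38.p10. For each library the authors deposited read counts per gene, whole numbers without normalization, of which 21349 of 21386 identifiers were found in GENCODE 29 (GRCh38), used for names and positions.

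Counts were fitted in R 4.3.3 with edgeR 4.0.16 (TMM, filterByExpr, quasi-likelihood test, prior count 0.125), each comparison from its own libraries, and called at 1.5-fold, p under 0.01 and a Benjamini-Hochberg FDR under 0.05. SE is the absolute log2 fold change divided by the root of F. CPM values use TMM factors over 12 libraries. Figures were drawn with matplotlib 3.10.9 in Python. The steps were tested on simulated counts. No 2 replicates were identical (chi-square per degree of freedom 21.3 to 108 for replicate pairs).

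Replicate numbers come from the labels. Deviations of same-numbered noDox libraries from their group means correlated across genes (r = 0.295, 0.216 and 0.315), so that the numbers pair the samples, and a fit with the number as a block is given. With Dox, r was -0.00823, -0.0876 and 0.252. The main fits and the interaction term hold no block.

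The comparison, gene lists and tests were chosen with earlier results of these data known. Named genes are MCM7, the 12 protein-coding genes per direction with the largest changes called with and without shMCM7 noDox replicate 1 (mean of at least 1 CPM, no overlap), up to 4 called members per list, the 8 per direction farthest off in replicate 1 (at least 5 CPM), the 5 with the smallest p called only with or only without it, and PI3K, MMP and TIMP members called in any fit. The alternatives were DESeq2 1.42.0 (size factors or Wald test), a likelihood ratio test, glmTreat, other filters, a prior count of 10, a spread shared by 12 libraries, GC offsets, parental Dox libraries as added controls, the block and leaving out libraries. A549 libraries were not analysed here. Results for some list members are not reported here.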

Additional observations from a re-analysis of the deposited data

Results flagged for a closer look

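For 5 named genes reported here, the difference between shMCM7 and parental cells changed with Dox by at least 1.5-fold. This held at an FDR under 0.05 for the interaction term over the 12 A375 libraries and again without shMCM7 noDox replicate 1. ZNF536 (-0.579) and CYP2J2 (-0.481) also met that FDR limit in both fits, with a difference under 1.5-fold over the 12 libraries. MMP3 had a log2 fold change that was larger with Dox by 1.65 (SE 0.318, FDR 0.00174), and CYR61 one larger by 0.928 (SE 0.157, FDR 0.000727). For the lower genes EPHB6 and GPC4 the term was -1.48 (SE 0.311, FDR 0.0031) and -0.622 (SE 0.189, FDR 0.0239), so that they were lower still with Dox. NID2 was higher by less with Dox, with a term of -0.97 (SE 0.23, FDR 0.0063). Its levels were 3.87, 3.92 and 4.36 CPM in shMCM7 cells with Dox, below the 4.86, 7.48 and 8.12 CPM without Dox, while parental cells had 2.88 to 3.15 CPM with Dox.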

How the results depend on the processing

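Counts of called genes depended on the model of the spread more than on scaling or filters. With all 6 noDox libraries (189 higher, 77 lower), the replicate block, which follows the pairing, gave 335 and 149, the block without shMCM7 noDox replicate 1, chosen after seeing the data, 401 and 183, the likelihood ratio test 310 and 145, and glmTreat against a 1.5-fold change 72 and 14. The cause was not tested, except that glmTreat asks for a change beyond 1.5-fold. Leaving out 1 library gave 134 to 256 higher and 39 to 66 lower genes, with 50 lower genes without shMCM7 replicate 2, 39 without parental replicate 2 and 40 without parental replicate 3. All 6 leave-out fits and the other alternatives kept higher genes in the majority, with shares of 68.1% to 83.7%. DESeq2's Wald test gave 245 and 104. Without replicate 1, the block moved 256 higher and 65 lower genes to 401 and 183, and leaving out parental replicate 1 as well gave 230 and 73. In the Dox contrast, leaving out 1 library gave 1139 to 1258 higher and 1267 to 1384 lower genes, and the block 1220 and 1346. Of 43 named genes called with all 6 libraries, 25 kept the call under every alternative, and none of the 43 changed sign under an alternative. Depth limits genes near 0.0116 to 0.0146 CPM, and 3 replicates a group limit changes near 1.5-fold.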
